A study of Mus musculus with 4 samples.

Results

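The genes described here encode 43 proteins of the Polycomb, Trithorax and heterochromatin systems, and their H3K36me3 peaks were compared between wild-type (WT) and H2A.z1-deficient (cKO) embryonic forebrain. Members were chosen by name from a list of 43 gene symbols, out of 21887 protein-coding genes of the reference. A peak belonged to a gene when the authors' annotation gave that gene's name and a class other than intergenic. For each gene the number of such peaks and their summed length were taken in both genotypes. Besides enzymes, the list holds subunits, scaffolds and readers of histone marks, such as Wdr5, Eed and the HP1 proteins.

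Trithorax-group complexes of the COMPASS type methylate lysine 4 of histone H3 at promoters and enhancers of active genes. Polycomb repressive complex 2 (PRC2) methylates lysine 27 of histone H3, and PRC1 ubiquitinates histone H2A, and together they keep developmental regulators silent in neural progenitors until differentiation. Heterochromatin rests on methylation of lysine 9 of histone H3, on the HP1 proteins that bind it, and on DNA methylation. The mark measured here, trimethylation of lysine 36 of histone H3 (H3K36me3), lies over the bodies of transcribed genes, so its peaks on these genes reflect transcription-coupled chromatin at the genes and not the activity of their products.

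Chromatin immunoprecipitation and sequencing was done on forebrain neural progenitor cells of C57BL/6 embryos at embryonic day 13. The WT group held 1 ChIP and 1 input library, and the group with the brain-specific deletion, labelled H2A.z1cKO, also held 1 of each. The Cre line that makes the deletion and the number of embryos pooled are not given in the sources used here. Since each genotype is represented by a single ChIP library, all differences are between 2 libraries and carry no test or p-value. Depth was close, at 31984670 ChIP tags in WT and 32927164 in cKO (ratio 1.03), but the cKO list held 2.58 times as many non-intergenic peaks with 5.18 times their summed length (67.6 against 13.1 Mb). The fragment length modelled by the peak caller, which sets the narrowest peak, differed as well (152 bp, WT, and 185 bp, cKO). The part of this library-wide difference in the values below was not tested. In tissue chromatin a change in the mix of cells and a change within cells cannot be told apart. As a check of the labelled cell type, a peak lay over 9 of 12 progenitor marker genes in WT, and over 11 in cKO. For neurons this held for 4 (WT) and 3 (cKO) of 9 markers, and for blood, vessels and mesenchyme for 0 and 1 (Csf1r) of 10. Over all genes it held for 31.3% in WT and 43.7% in cKO.

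Nearly all of these genes carried H3K36me3. By name, 37 of the 43 had a peak in WT (background: 27.9% of all genes) and 41 in cKO (39.1%), and 37 had one in both. Rbbp5, Ezh1, Pcgf6 and Kdm6a were named in the cKO list alone, and Cbx1 and Suv39h2 in neither. The name was that of one gene per peak, so peaks inside a member were at times listed under a neighbour or an embedded gene. When every peak over the RefSeq gene span was counted, 40 members were marked in WT (background 31.3%) and all 43 in cKO (43.7%). Of the 456 WT and 648 cKO peaks over member spans, 100 and 121 carried another gene's name, among them all peaks over Cbx1 and Suv39h2. Conversely, 14 WT and 40 cKO peaks named for a member lay outside its span. Coverage, the share of the RefSeq gene span inside peaks of any name, is therefore given beside the counts by name.

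Peak length was greater in cKO for every member that could be compared. The 370 WT peaks of the members summed to 158 kb and the 567 cKO peaks to 556 kb. Summed length was at least 2 times the WT value in 31 of the 37 members with a peak in both lists, against a background of 89.9% of 8054 genes. It was at most 0.5 times the WT value in 0 members (background 0.546%), and lower by any amount in 0 (1.85%). The share of members past the rule was thus near that of genes at large, but with peaks within 3 kb joined it was 18 of 37 members beside 70.8% of genes. The median ratio of summed length over members was 3.87 (quartiles 2.27 and 5.68, range 1.43 to 18.6), below the 5.48 of all genes with a peak in both lists. Relative to the total length of each list, 3 members gained at least 2 times (Dpy30, Eed and Asxl2, background 21.8%) and 11 held at most 0.5 times their WT share (background 17.1%).

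**Figure D1:**
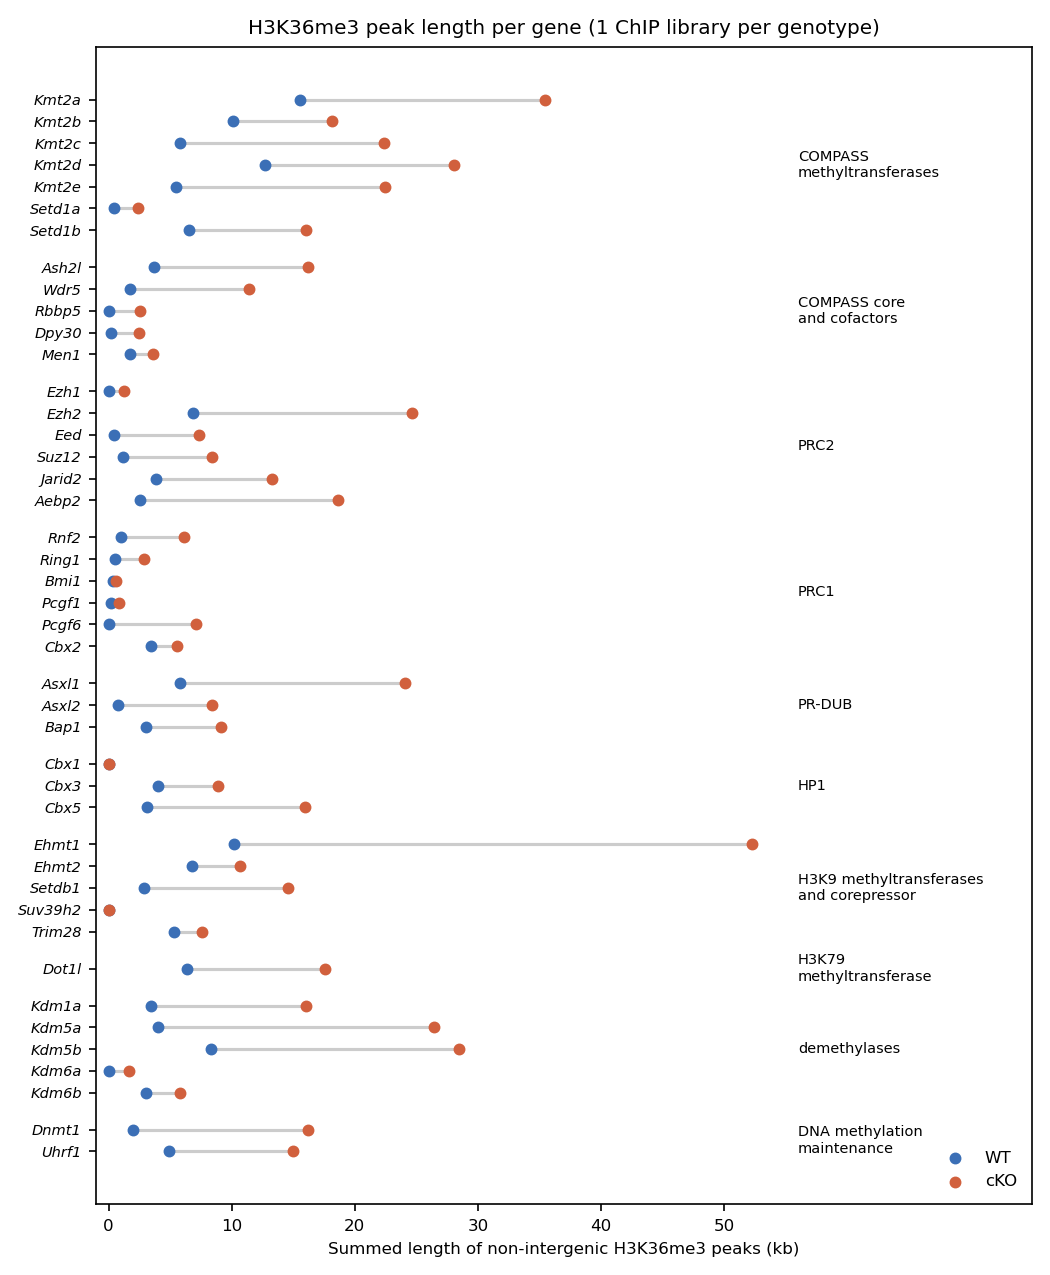
Summed length of non-intergenic H3K36me3 peaks (kb, horizontal axis) of each of the 43 genes by role, with WT in blue and cKO in orange, 1 ChIP library each. The cKO point lies to the right of the WT point for all 41 genes with a named peak, such as Bmi1 with 0.329 and 0.617 kb and Ehmt1 with 10.2 and 52.2 kb, while both points of Cbx1 and Suv39h2 are at 0 and coincide.

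The genes that gained least in ratio were those most covered in WT. The 15 members with WT coverage of at least 20% had ratios of 1.43 to 8.06 (median 2.22), and the 8 with both a ratio and a WT coverage under 5% had ratios of 1.88 to 18.6 (median 6.63). These ratios are by name, while coverage is by span. Trim28 and Dnmt1, at the lower and upper end of the first range, had ratios of 1.82 and 2.73 by span. Across the 37 members the Spearman rho of WT coverage and ratio was -0.678, beside -0.488 across 5969 genes. The WT peaks enter both quantities and coverage cannot exceed the gene, so a negative value is built in to some extent. The order of the genes was largely kept, with a rho of 0.868 between WT and cKO coverage over the 43 members, which share their libraries. Coverage had a median of 9.92% in WT (range 0 to 56.3%) and 41.0% in cKO (1.35 to 86.4%). It exceeded 50% in 1 member in WT, Trim28, and in 18 in cKO. Among genes of at least 5 kb with a WT peak, it did so in 1 and 17 of 38 members, beside 0.516% and 24.2% of 6400 genes. Leaving out the 2 members shorter than 5 kb, coverage was greater by 10 percentage points or more in 35 of 41 (background 32.6% of 16853 genes) and smaller by that much in 0 (background 0%). Most of those 16853 genes carry no peak. Among genes with a WT peak it was greater by that much in 34 of 38 members and in 75.3% of 6400 genes, with median differences of 31.2 and 22.9 points.

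In many of these genes the cKO list held fewer but much longer peaks. Summed length was greater while the number of peaks was smaller in 15 of the 37 members, against a background of 14.8%. Among genes with at least 5 WT peaks, which have peaks to join, this held for 13 of 26 members and for 29% of all 2617 genes. This count was chosen after its values were seen. Kmt2d, a lysine 4 methyltransferase of enhancers, had 21 WT peaks of at most 1570 bp and 2 cKO peaks, the longer of 20351 bp, the longest of any member. That cKO peak (mm10 chr15:98838657-98859007) lay over 19 WT peaks. In Dnmt1 a cKO peak of 14121 bp (chr9:20927557-20941677) lay over 11 WT peaks, in Dot1l one of 12173 bp (chr10:80780893-80793065) over 10, and in Kmt2b one of 11584 bp (chr7:30571725-30583308) over 10. At the other end, Suz12 went from 2 to 13 named peaks, Eed from 2 to 12 and Dpy30 from 1 to 6. Member peaks over 2 kb numbered 3 in WT (0.811% of member peaks) and 57 in cKO (10.1%), beside 0.478% and 6.09% of all non-intergenic peaks. Member peaks had a median width of 334.5 bp (WT) and 527 bp (cKO), beside 271 and 439 bp for all.

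**Figure D2:**
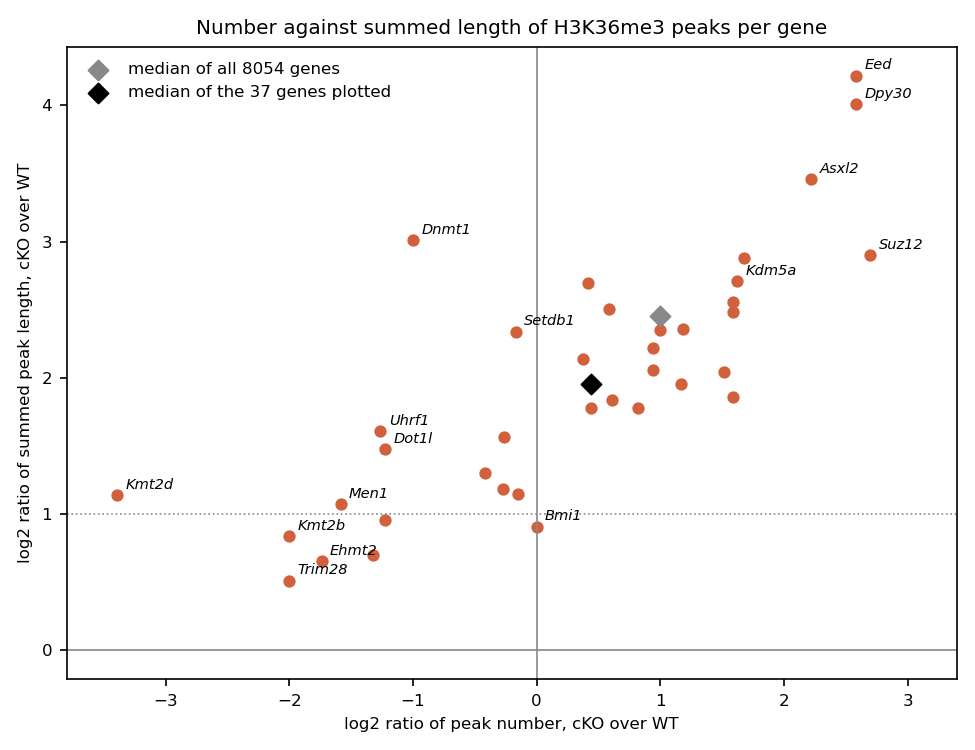
Log2 ratio (cKO over WT) of peak number (horizontal axis) against that of summed peak length (vertical axis) for the 37 genes with a peak in both lists, each point 1 gene, with diamonds for the medians and a dotted line at a length ratio of 2. All points lie above 0 on the length axis, while 15 lie left of 0 on the number axis, with Kmt2d farthest left and Eed highest.

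Almost every WT peak of these genes was found again. Of the 370 member WT peaks, 365 were overlapped by a cKO peak (98.6%, exact Clopper-Pearson interval 96.9 to 99.6%), beside 96.5% of all non-intergenic WT peaks. The 5 without a partner were single short peaks of 167 to 280 bp in Kdm5b, Kdm6b, Kmt2c, Cbx3 and Aebp2. In the other direction 207 of 567 member cKO peaks (36.5%, 32.5 to 40.6%) met a WT peak, beside 25.6% of all. Introns held 43.8% of member WT peaks (38.7 to 49.0%) and 66.0% of member cKO peaks (61.9 to 69.9%), exons 28.9% and 15.0%, and transcription termination sites 18.1% and 12.5%. All non-intergenic peaks had 50.9% and 64.0% in introns, 23.3 and 16.1% in exons, and 17.9 and 14.3% at termination sites. Intervals cover counting error alone, and neighbouring peaks of a gene are not independent.

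**Figure D3:**
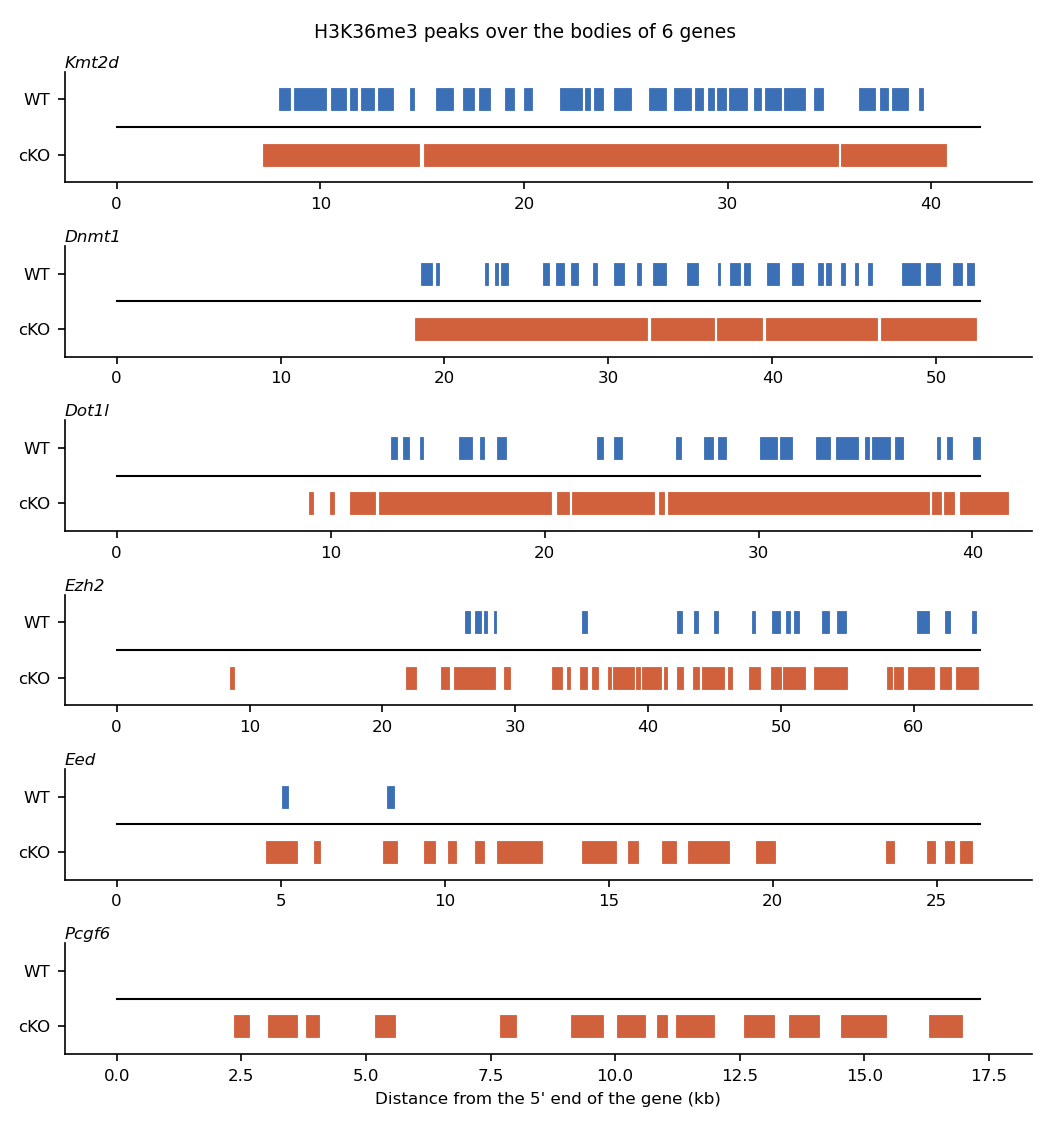
Positions of H3K36me3 peaks along 6 genes as distance from the 5′ end (kb), with WT peaks in blue above and cKO peaks in orange below each gene line. Kmt2d, Dnmt1 and Dot1l have 21 to 30 WT peaks over the gene but 3 to 11 cKO peaks, Ezh2 has 17 and 27, Eed has 2 and 16, and Pcgf6 has peaks in cKO alone.

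Coverage was lowest at the 5′ end of the genes in both genotypes and highest in the last 2 of 5 bins. Gene bodies of at least 5 kb were cut into 5 bins of equal length. Mean coverage over the 41 members was 1.30, 11.0, 19.3, 23.7 and 23.2% in WT and 10.3, 37.7, 51.9, 60.1 and 62.8% in cKO, from bin 1 to bin 5. The 5209 genes with a WT peak and a known strand went from 1.27 to 13.1% in WT and from 7.59 to 48.8% in cKO. Unlike these genes, the 41 members include some without a WT peak (Ezh1, Pcgf6 and Kdm6a), whose WT bins are all empty. Bin 1 held no peak in 33 members in WT and in 21 in cKO, beside 81.6 and 58.8% of the 5209 genes. Bin 5 was above bin 1 in 33 and 38 of 41 members (71.3 and 88.4% of the genes) and equal to it in 6 and 2. It was below bin 1 in both libraries in Kdm5a, with 7.15 and 4.90% (bins 1 and 5) in WT and 54.1 and 42.5% in cKO. In WT Eed, too, was below, with 3.42% in bin 1 and no peak in bin 5. The peak nearest to the 5′ end began a median of 8.05 kb inside the gene in WT and 6.51 kb in cKO. It was nearer in cKO in all 39 members with a value in both, a count not made over all genes.

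**Figure D4:**
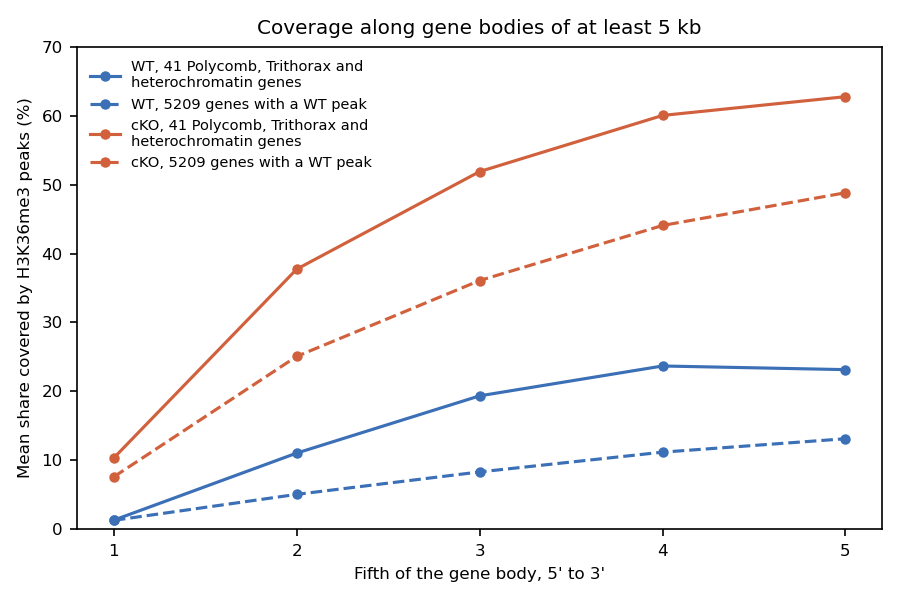
Mean share of the gene body covered by H3K36me3 peaks (%) in 5 bins of equal length along the direction of transcription, for the 41 members of at least 5 kb (solid) and 5209 genes with a WT peak (dashed). For the members the values go from 1.30% in bin 1 to 23.7% in bin 4 and 23.2% in bin 5 in WT, and from 10.3 to 62.8% in cKO. The members include Ezh1, Pcgf6 and Kdm6a, which have no WT peak.

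The start sites themselves stayed outside the peaks, as did nearly all start sites of protein-coding genes. RefSeq (GRCm38.p6) promoter windows of 250 bases before to 50 after a start site were at hand for 35 members, 49 windows in all. Windows of the same gene can overlap, as in Men1 and Dpy30. In both genotypes 0 of the 49 windows met a peak, beside 0.127% of 21263 windows of protein-coding genes in WT and 0.734% in cKO. The distance downstream from a window to the next peak had a median of 8.70 kb in WT and 4.51 kb in cKO, with a lowest value of 1273 and 1095 bp. It was shorter in cKO for all 49 windows, a count not made over the windows of all protein-coding genes. The 49 windows include those of Kdm6a, Pcgf6 and Ezh1. There the next WT peak lay beyond the gene, 2485.6, 153 and 65.3 kb from the window. The authors' class promoter-TSS was nevertheless given to 34 WT and 37 cKO member peaks, in 19 members each. These were 9.19 and 6.53% of member peaks, beside 8.01 and 5.59% of all non-intergenic peaks. Those in members with a window (24 and 27 peaks) lay 3341 to 216965 bp from the nearest window in WT and 1309 to 216987 bp in cKO. The class therefore does not place a peak at these start sites. Shown here are the windows of the 4 most covered members in cKO that have one, to show the kind of sequence that stayed without a peak beside a gene body that was 78.1 to 84.5% covered. Capitals mark each CG dinucleotide, the target of DNA methylation, counted on the strand shown (the same count holds on the other). The windows hold 35, 23, 50 and 27 CG, beside a median of 24 over the 49 member windows and 13 over all windows, of which 95.4% hold at least 1.
Setd1a, chr7:127777139-127777438, plus strand: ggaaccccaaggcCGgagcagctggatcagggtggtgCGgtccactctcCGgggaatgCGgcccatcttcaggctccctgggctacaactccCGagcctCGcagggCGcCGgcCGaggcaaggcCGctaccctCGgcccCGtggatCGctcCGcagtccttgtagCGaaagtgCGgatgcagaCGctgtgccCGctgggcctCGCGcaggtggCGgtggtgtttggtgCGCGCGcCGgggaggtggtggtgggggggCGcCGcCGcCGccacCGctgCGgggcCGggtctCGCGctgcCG
Trim28, chr7:13023902-13024201, plus strand: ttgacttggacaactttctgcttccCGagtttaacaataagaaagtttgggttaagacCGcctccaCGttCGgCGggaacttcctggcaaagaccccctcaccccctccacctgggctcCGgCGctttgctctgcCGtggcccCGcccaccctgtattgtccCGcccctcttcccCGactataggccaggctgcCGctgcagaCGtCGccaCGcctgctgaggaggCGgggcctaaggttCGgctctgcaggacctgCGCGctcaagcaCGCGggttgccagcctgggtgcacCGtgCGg
Bap1, chr14:31251239-31251538, plus strand: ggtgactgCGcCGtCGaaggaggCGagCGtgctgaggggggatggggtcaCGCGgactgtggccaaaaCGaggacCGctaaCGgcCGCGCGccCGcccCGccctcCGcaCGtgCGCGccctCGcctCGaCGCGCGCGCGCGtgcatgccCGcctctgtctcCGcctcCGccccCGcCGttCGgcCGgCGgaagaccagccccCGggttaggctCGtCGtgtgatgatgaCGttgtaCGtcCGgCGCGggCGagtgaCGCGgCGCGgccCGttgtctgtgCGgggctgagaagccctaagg
Kmt2d, chr15:98871156-98871455, minus strand: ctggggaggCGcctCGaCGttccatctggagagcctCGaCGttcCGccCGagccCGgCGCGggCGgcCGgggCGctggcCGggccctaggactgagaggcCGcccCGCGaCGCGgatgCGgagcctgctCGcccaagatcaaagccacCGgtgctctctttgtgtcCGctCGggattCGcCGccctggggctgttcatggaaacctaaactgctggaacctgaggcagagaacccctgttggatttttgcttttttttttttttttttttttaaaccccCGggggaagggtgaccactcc
The next peak downstream of these windows began after 2.97 kb in WT and 1.21 kb in cKO for Setd1a, after 2.02 and 1.31 kb for Trim28, after 3.00 and 1.35 kb for Bap1, and after 5.04 and 4.26 kb for Kmt2d.

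The 7 COMPASS-type genes were all marked in both genotypes, with 115 WT peaks over 56.6 kb and 124 cKO peaks over 145 kb. Summed length was at least 2 times WT in 6 of 7 by name and in 5 of 7 by span. The backgrounds were 89.9% by name and 92.2% by span. Kmt2a, the MLL1 methyltransferase that maintains Hox and neurogenic gene expression (chr9:44803355-44881352), had 29 WT peaks over 15.6 kb and 24 cKO peaks over 35.4 kb, the most WT peaks of this group. Kmt2b, its close paralogue, went from 16 peaks over 10.1 kb to 4 over 18.2 kb, the smallest ratio (1.79). Its coverage of 49.1% in WT and 86.4% in cKO was the highest of all members in cKO. Kmt2d (chr15:98831669-98874077) went from 12.7 to 28.0 kb and from 43.2 to 78.1% coverage. Past the rule by name, it had a ratio of 1.81 by span, where 9 of 30 WT peaks were named for Prkag1. Its sister Kmt2c, a gene of 227061 bp, had 16 WT and 36 cKO peaks and reached 10.3% from 2.55%. In Kmt2c the nearest peak to the 5′ end lay 180 kb inside the gene in WT and 99.1 kb in cKO. Kmt2e, whose product has a SET domain without clear methyltransferase activity, went from 15 peaks (5.47 kb) to 43 (22.5 kb), 11 of the latter outside the RefSeq span. Setd1b, a catalytic subunit of the broad COMPASS complex, had 16 and 12 peaks (6.52 and 16.0 kb). Setd1a had the largest ratio of the group, 5.68, from 2 and 3 named peaks (0.426 and 2.42 kb). Of the 20 WT and 8 cKO peaks over the Setd1a span, 18 and 5 were named for Hsd3b7, and over the span the ratio was 2.67. Its coverage was 31.6 and 84.5%.

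The 5 core and cofactor genes of these complexes had WT coverage of 2.43 to 29.1% and cKO coverage of 20.5 to 70.9%. Ash2l, a core subunit, had 10 WT peaks over 3.68 kb and 13 cKO peaks over 16.2 kb. Wdr5, the subunit that docks the complex to histone H3, had 6 and 8 peaks (1.76 and 11.4 kb), with coverage of 10.6 and 70.9%, the largest difference of any member (60.3 points). Rbbp5, a core subunit, was named in cKO alone with 6 peaks over 2.57 kb. All 5 WT peaks over the Rbbp5 span were named for its neighbour Tmem81, and span coverage was 5.47 and 41.0%. Dpy30, the small core subunit, had 1 WT peak of 152 bp and 6 cKO peaks over 2.45 kb, a ratio of 16.1 that rests on the shortest peak possible in WT (8.45 by span). Men1 (menin, the partner of MLL1 and MLL2) had 3 WT peaks over 1.72 kb and 1 cKO peak of 3615 bp over all 3 of them, the smallest ratio of the group.

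PRC2 genes had WT coverage of 0 to 10.6%. The median was 9.92% over all members and 3.96% over 6400 genes of at least 5 kb with a WT peak. All 5 PRC2 genes with a peak in both lists passed the rule, as did 89.9% of all such genes. Ezh2, the main lysine 27 methyltransferase of progenitors (chr6:47530274-47595270), had 17 WT peaks over 6.89 kb and 26 cKO peaks over 24.6 kb. Ezh1, the paralogue of non-dividing cells, had no WT peak and 4 cKO peaks over 1.28 kb, with 3.62% coverage. Ezh2 coverage was 10.6 and 38.2%, so the proliferative paralogue was the more covered in both. Eed (chr7:89954654-89980976), which reads lysine 27 methylation and activates the enzyme, had the largest ratio by name of all members, 18.6, from 2 peaks (0.396 kb) to 12 (7.36 kb). With so short a WT length the ratio of Eed moved with the settings, to 40.9 when only peaks with -log10 q from 5 upward were kept and to 4.57 when peaks within 3 kb were joined. By span it was 21.6, below the 24.2 of Suv39h2. Suz12, the scaffold of the complex, went from 1.13 to 8.42 kb by name and from 9.40 to 47.5% coverage, with 11 of 13 WT span peaks named for the gene Gm26563. Jarid2, a cofactor that recruits PRC2, had the smallest ratio of the group (3.44), with 14 and 19 peaks (3.87 and 13.3 kb) on a gene of 190870 bp. Its first peak lay 166 kb inside the gene in WT and 154 kb in cKO. Aebp2, another cofactor, had 10 and 32 named peaks (2.53 and 18.7 kb), of which 4 and 11 lay outside the RefSeq span, where 2.30 and 17.8% were covered.

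WT peaks were named for 5 of the 6 PRC1 genes and cKO peaks for all 6. Past the rule were 3 of 5 by name and 2 of 5 by span (background 89.9% by name and 92.2% by span). Rnf2, the main E3 ligase for H2A, had the largest ratio, 5.89 (2 and 6 peaks, 1.04 and 6.12 kb). Ring1, its paralogue, is 3889 bp long and went from 1 peak of 507 bp to 3 over 2.84 kb (13.04 and 61.2% coverage). Bmi1, which sustains neural stem cell self-renewal, had 1 peak in each, of 329 and 617 bp, at 3.42 and 6.42% coverage. Pcgf1, of the variant complex, had 1 peak of 231 bp and 3 over 0.840 kb, 1 of them outside the gene, a ratio of 3.64 by name and 1.81 by span. Pcgf6, of another variant complex (chr19:47033617-47050939), had no WT peak and 14 cKO peaks over 7.09 kb, and 39.4% of its body was covered in cKO. None of the other members without a WT peak over the span, Ezh1 and Kdm6a, exceeded 3.62%. Cbx2, the chromodomain subunit that compacts nucleosomes, had the most WT peaks of the group (5, over 3.41 kb), 2 cKO peaks over 5.54 kb and the smallest ratio, 1.63.

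The deubiquitinase that removes the PRC1 mark is encoded by Bap1 with the Asxl cofactors, and all 3 genes were past the rule (background 89.9%). Asxl1 had 13 and 25 peaks over 5.77 and 24.04 kb. Asxl2, its paralogue, had the largest ratio (11.0), with 3 WT peaks over 0.763 kb and 14 cKO peaks over 8.37 kb, at 0.909 and 9.97% coverage. Bap1, the catalytic subunit, had the smallest (2.96), with 6 and 5 peaks over 3.07 and 9.09 kb and coverage of 32.9 and 79.2%. Of these peaks, 1 in WT and 3 in cKO lay outside the RefSeq span, and the ratio by span was 2.41.

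Among HP1 genes, Cbx3 (HP1 gamma) had 10 WT peaks over 4.02 kb and 9 cKO peaks over 8.92 kb, and Cbx5 (HP1 alpha) 9 and 18 over 3.12 and 15.9 kb. Their ratios were 2.22 and 5.11. Cbx1 (HP1 beta) held no peak under its own name, but 4 WT and 10 cKO peaks lay over its span, at 7.66 and 39.1% coverage, and carried the names Gm11517 and Nfe2l1.

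The lysine 9 methyltransferase genes differed widely. Ehmt1 (GLP, chr2:24790769-24919643) had the most peaks by name of any member, 30 in WT over 10.2 kb and 68 in cKO over 52.2 kb, with the largest ratio by name of its group (5.13). Its partner in the same heterodimer, Ehmt2 (G9a), went from 10 peaks over 6.76 kb to 3 over 10.6 kb, a ratio of 1.58. A cKO peak of 8748 bp in Ehmt2 lay over 8 WT peaks. Setdb1, which silences retroelements, had 9 and 8 peaks over 2.88 and 14.6 kb. Trim28 (KAP1), the corepressor that recruits Setdb1, had the smallest ratio by name of all members, 1.43. By span it was 1.82, and Kdm6b had the smallest (1.49). The 4 WT peaks of Trim28 over 5.34 kb all lay under 1 cKO peak of 7616 bp, longer than the gene (6881 bp). This peak began 1.36 kb inside the gene and ran 2093 bp past its 3′ end. Suv39h2, an enzyme of pericentric heterochromatin, was named in neither list, and 1 WT and 10 cKO peaks of other names covered 0.793 and 19.2% of it. Dot1l, the lysine 79 methyltransferase, had 14 WT peaks over 6.33 kb and 6 cKO peaks over 17.6 kb.

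WT peaks were named for 4 of the 5 histone demethylase genes and cKO peaks for all 5, with 3 of 4 past the rule (background 89.9%). Kdm5a, a lysine 4 demethylase, had the largest ratio (6.55), from 13 peaks over 4.03 kb to 40 over 26.4 kb. Its paralogue Kdm5b had the most WT peaks, 21 over 8.31 kb, and 37 over 28.5 kb in cKO. Kdm1a (LSD1), which acts in progenitor proliferation, had 13 and 25 peaks (3.45 and 16.1 kb). The lysine 27 demethylases differed from each other. Kdm6b (JMJD3) had the highest WT coverage of the group (25.9%, and 38.7% in cKO) and went from 7 peaks over 3.00 kb to 3 over 5.81 kb, the smallest ratio (1.94), and the X-linked Kdm6a (UTX) had no WT peak and 4 cKO peaks over 1.61 kb, the lowest cKO coverage of all members (1.35% of 119075 bp).

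Both genes of DNA methylation maintenance were past the rule (background 89.9%). Dnmt1 (chr9:20907206-20959888), which copies methylation at replication, had 6 named WT peaks over 2.01 kb and 3 named cKO peaks over 16.2 kb, a ratio of 8.06. Of the 3 cKO peaks, 2 lay outside the RefSeq span. Most peaks over the gene carried the name of a microRNA, mmu-mir-7081 (21 of 27 in WT, 4 of 5 in cKO). By span the ratio was 2.73 and coverage 23.2 and 63.3%. Uhrf1, which guides DNMT1 to replicated DNA, had 12 WT peaks over 4.91 kb and 5 cKO peaks over 15.0 kb (ratio 3.06, coverage 24.4 and 76.4%).

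The wider pathways looked alike in direction. Of 50 further genes of these systems, the WT list named 38 and the cKO list 46. Both lists named 38, of which 35 were past the rule (background 89.9%), with a median ratio of 4.47 (5.48 over all genes) and 0 lower (background 1.85%). The largest ratios were those of Kdm5c, an X-linked lysine 4 demethylase (27.2, from 0.484 to 13.2 kb), and Tet1, a 5-methylcytosine dioxygenase (16.9, from 0.502 to 8.48 kb). The smallest were those of Rcor2, a cofactor of LSD1 (1.58, from 3.02 to 4.77 kb), and Pcgf2, a PRC1 subunit (1.59, from 2.22 to 3.53 kb).

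The members split when only the cKO peaks of highest q rank were kept, as many as fill the covered length of WT (5308 peaks). Of the 37 members compared, 12 then had no cKO peak left by name (background 61.3%). Of the 25 that did, 18 were longer than in WT and 7 shorter, with a median ratio of 1.41 beside 1.49 over all 3119 such genes. The shares of those 3119 genes longer and shorter than in WT were not counted. At least 2 times WT were 2 of 25 (Kmt2d and Setdb1, background 30.8%) and at most 0.5 times 2 of 25 (Jarid2 and Kdm5a, background 9.04%). By coverage, 12 of 41 members were higher by 10 points (background 4.81%) and 2 lower (2.21%). Among genes with a WT peak these were 12 and 2 of 38 members, beside 12.5 and 5.83% of 6400 genes. The higher ones included Bap1 (37.2 points), Kmt2d (34.9), Dot1l (29.0), Setd1a (25.7), Trim28 (24.01) and Kmt2b (20.2). The lower ones were Men1 (-29.1) and Wdr5 (-10.6), which had no cKO peak left over the gene. This reduction keeps long peaks and drops short ones, and by construction it removes any overall gain.

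**Figure D5:**
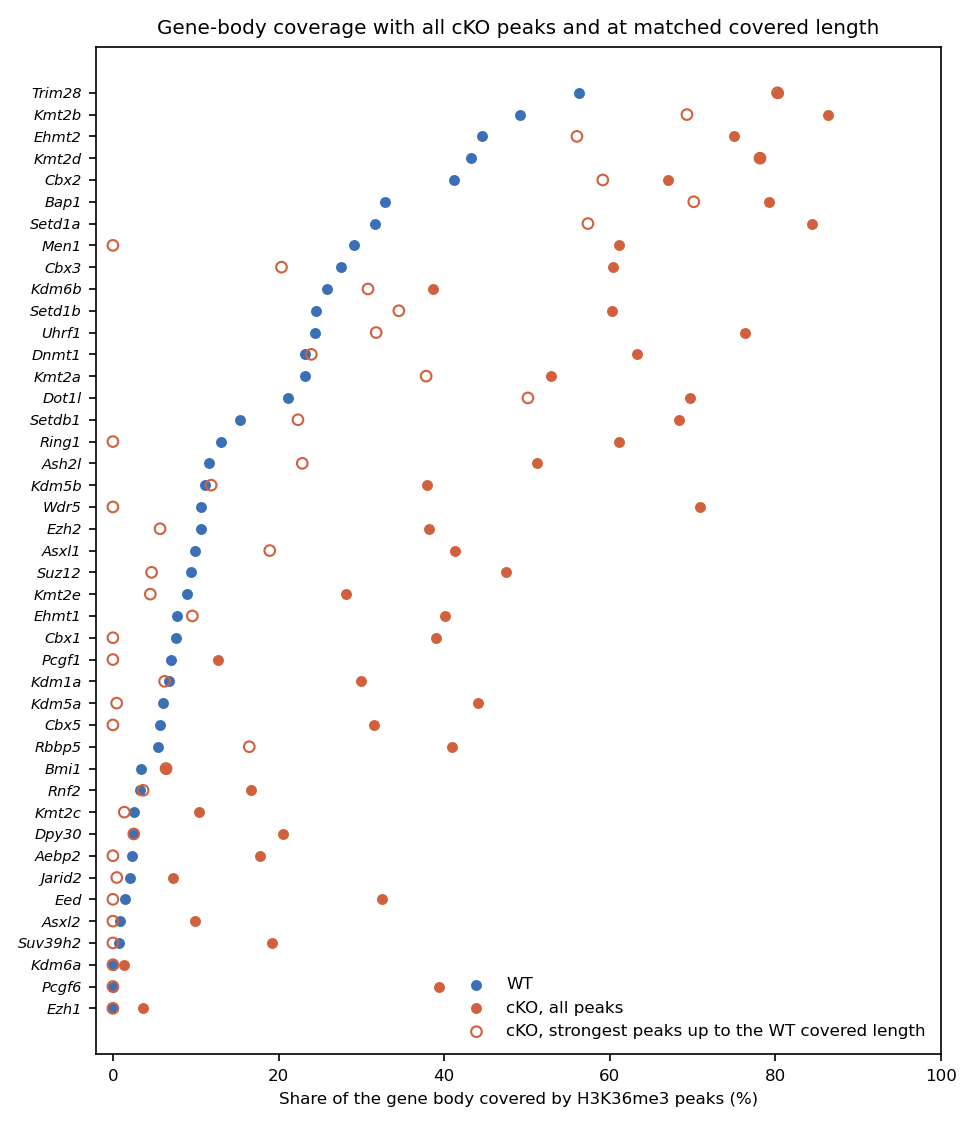
Share of each gene body covered by H3K36me3 peaks (%), ordered by WT coverage, for WT (blue), all cKO peaks (filled orange) and the strongest cKO peaks up to the WT covered length (open circles). With all peaks every gene is higher in cKO. At matched covered length 22 of the 43 genes are above WT, 18 below and 3 equal. Of members of at least 5 kb with a WT peak, 22 of 38 are above and 16 below. Of all such genes, 1880 of 6400 are above and 4519 below.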

How the data were processed

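H3K36me3 ChIP-seq peak lists of 1 WT and 1 cKO library were used. The submitters' alignment used Bowtie2 2.2.9 and build mm10, per the submitters' processing notes. Narrow peaks were called by the authors with MACS 2.1.1.20160309 (2.1.0 per the submitters' processing notes) against input at a p cutoff of 1e-05, from files whose names state removal of duplicates and unique alignment, per the file headers. The cKO input file name carries 2 numbers, and no label or header states whether inputs were pooled. Deposited values are positions in bp, the pileup signal, the fold enrichment, and p-value and q-value of each peak, both as -log10. These deposited signal, fold and -log10 values served to rank or filter peaks within a list and were not compared between lists. A second deposited table gave each peak a class and a gene name, with starts 1 bp higher.

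Peaks were summed per gene name, and over gene spans of RefSeq GRCm38.p6, whose table lists 1 span per gene. All 43 members and the 50 further genes matched it. A ratio of at least 2 or at most 0.5, or a coverage difference of 10 points in genes of at least 5 kb, was the rule of size. Strand came from the promoter table (35 members) or from exon and intron numbers, which gave the same strand in 29 of 29 members checked. Pcgf1, under 5 kb, had neither. Overlap needed 1 bp. Measures were tested on simulated peak lists. Members, lists and tests were chosen with earlier results of these data known. Named in full by rule were, per role, the members with the largest and smallest ratio and the most WT peaks, members without a peak in a list, and members with a WT promoter-class peak. Alternatives kept peaks with -log10 q from 5 upward, or with fold enrichment from 4 upward, or the strongest cKO peaks up to WT's peak count or covered length. Others were peaks within 3 kb joined, assignment by span, and 50% reciprocal overlap. Python 3.11.15, pandas 2.3.3, numpy 2.4.6 and scipy 1.17.1 were used.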

Additional observations from a re-analysis of the deposited data

How the results depend on the processing

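No paired analysis was possible because each genotype has 1 ChIP library and no replicate number. Counts and ratios within 1.5 times their value, and shares within their interval, counted as unchanged. Keeping peaks with -log10 q from 5 upward, keeping those with fold enrichment from 4 upward, or assigning by gene span left the member counts of length and the medians within these limits. With peaks within 3 kb joined, 18 of 37 members were past 2 times WT with a median length ratio of 1.90, beside 70.8% of 8054 genes and 3.71, so the member share was then below that of genes at large. By span, Kmt2d and Pcgf1 (both 1.81) were no longer past 2 times. The ratio of Eed was 8.46 with as many cKO peaks as WT has. With as many of the strongest cKO peaks as WT has peaks, 5 members held at most 0.5 times their WT share, 91.6% of member WT peaks met a cKO peak and 58.0% of member cKO peaks were intronic. With cKO peaks up to WT's covered length, 25 members were marked in cKO, 2 were at least 2 times and 2 at most 0.5 times WT, 2 held at most 0.5 times their share, the median ratio of length was 1.41 and of peak number 0.188, 45.9% of WT peaks met a cKO peak and 34.5% of cKO peaks were intronic. There the ratios of Kmt2c (0.541), Kmt2e (0.589), Ezh2 (0.537), Jarid2 (0.232), Cbx3 (0.869), Kdm1a (0.945) and Kdm5a (0.0907) turned below 1. This setting has fewer and longer cKO peaks by construction. A reciprocal overlap of 50% left 15.1% of member WT peaks shared. The number of tags limits which short peaks are called, so a gene without a peak is not shown to lack the mark.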

Other observations

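The X-linked genes of these systems had a higher median ratio than the autosomal ones. Among the 43 members and 50 further genes, 10 are X-linked, of which 6 were marked by name in WT and 9 in cKO. The 6 marked in both were Kdm5c (27.2), the remodeller gene Atrx (15.6), Rbbp7 (10.0), Ogt (8.99), Bcor (8.22) and Hcfc1 (7.55), with a median length ratio of 9.51, beside 4.11 over the 69 autosomal genes (1.43 to 18.6). The autosomal Eed, Tet1 and Dpy30 (18.6, 16.9 and 16.1) exceeded all X-linked ratios but that of Kdm5c. WT coverage was under 5% in 5 of the 6 (0.359 to 7.82%), a range in which ratios of members were high as well (median 6.63). Kdm6a, Bcorl1 and Suv39h1 had peaks in cKO alone (1.61, 10.3 and 2.79 kb). Over all genes the median was 7.55 on the X (45 genes) and 5.67 on autosomes (5924 genes), and the X held 137 of 36006 non-intergenic WT peaks and 1115 of 92920 cKO peaks. No label used here gives the sex of the embryos, and its part in these values was not tested. This grouping was chosen after its values were seen.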
